A study of Mus musculus with 14 samples.

Results

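The Cyp4a genes are a group of cytochrome P450 genes, and 6 of them were followed in mouse liver: Cyp4a10, Cyp4a12a, Cyp4a12b, Cyp4a14, Cyp4a31 and Cyp4a32. They were taken by name out of 19751 genes on the arrays, and every probe whose RefSeq accession belonged to one of them was used, 10 probes in all. Liver RNA came from male (M) and female (F) CD-1 mice aged 3, 4 or 8 wk, which gave 6 groups, and no group carried a transgene or treatment by its labels. Each group had 2 separate pools of RNA, with 5 mice in each 3 wk pool and 6 in each older pool, so differences between single mice within a pool were not measured. Pairs of pools were hybridized together on 14 two-colour Agilent arrays with the dyes exchanged between the 2 arrays of a comparison. There were 7 comparisons, the sexes at each age (M3/F3, M4/F4 and M8/F8), adult against young males (M8/M3 and M8/M4) and adult against young females (F8/F3 and F8/F4). Values are log2 ratios of the first group over the second, and n = 2 arrays limits their precision. Calls required an adjusted p under 0.05 in limma, a ratio over 1.5 or under 0.667, and a signal well above background on both arrays in at least 1 of the groups compared. A gene with several probes was counted by its brightest probe, and all 10 probes were well above background in all 28 channels.

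Cyp4a enzymes sit in the endoplasmic reticulum and add a hydroxyl group to the omega end of medium- and long-chain fatty acids, arachidonic acid among them. Further oxidation turns the products into dicarboxylic acids, which peroxisomes shorten. In mouse liver Cyp4a10 and Cyp4a14 are known as targets of the fatty acid receptor PPARalpha and rise in fasting and with fibrate drugs, whereas Cyp4a12a is known to predominate in male mice and to respond to androgen. In the GRCm38.p6 assembly all 6 genes neighbour each other on chromosome 4, in the order Cyp4a12a, Cyp4a12b, Cyp4a14, Cyp4a10, Cyp4a31 and Cyp4a32, with the related gene Cyp4a30b between Cyp4a12b and Cyp4a14.

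Genes so similar in sequence can share signal on an array, so the probes were compared first. Probe sequences were held for 4 of the 10 probes, each 60 bases long. Those of Cyp4a10 (the second brightest of its 3 probes) and Cyp4a31 (its brightest) overlapped over 47 bases, of which 44 (93.6%) were identical, with an identical run of 34 bases. The last 30 bases of that overlap are shown because they hold 2 of the 3 differences, which are in capitals.
Cyp4a10: ccctcctttctgcaataaagTtccCagtgt
Cyp4a31: ccctcctttctgcaataaagGtccAagtgt
Counted from the 5′ end of the Cyp4a10 probe, the 3 differences were G3A, T38G and C42A. The log2 ratios of these probes differed by at most 0.12 on any of the 14 arrays, and whether each measures its own gene alone was not tested. The probes of Cyp4a14 and Cyp4a32 had no such stretch in common with them or with each other, and their longest identical run with another probe was 6 bases. The first 30 bases of each are shown for comparison.
Cyp4a14: aggttgttctctgcttttgactcctgagct
Cyp4a32: agacccctaaaaactccaagatagttttcc
The probes of Cyp4a12a and Cyp4a12b were not compared by sequence here. Their log2 ratios differed by at most 0.93 on any array, and how far each probe measures its own gene alone was not tested.

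In adult liver the sex difference divided the family. At 8 wk Cyp4a12a and Cyp4a12b were far higher in male liver and Cyp4a10, Cyp4a14, Cyp4a31 and Cyp4a32 were lower in male liver. All 6 genes were called in M8/F8, 2 higher and 4 lower in males, where 2.81% of all probes tested were called higher and 3.49% lower. The median log2 ratio was -1.45 over the 6 genes and 0.01 over all probes tested. Of 5 Kupffer cell markers 3 were also lower in M8/F8 (Marco by most, log2 -1.05), and their part in the Cyp4a results was not tested. Fewer cells of a type and less RNA per cell cannot be told apart in whole liver.

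The M8/F8 log2 ratio of Cyp4a12a was 4.6 on the replicate 1 array and 4.94 on the replicate 2 array. The fitted ratio was 27.3-fold (log2 4.77, SE 0.56, adjusted p = 0.0023, limma). Cyp4a12b gave 4.08 and 4.01, or 16.6-fold (log2 4.05, SE 0.54, adjusted p = 0.004, limma). Both arrays thus put both genes more than 15-fold above female liver. For Cyp4a10 the log2 ratios were -1.94 and -2.55, and its level was 4.74-fold lower in male liver (log2 -2.25, SE 0.20, adjusted p = 0.000842, limma). Cyp4a14 gave -1.49 and -3.08, the widest gap between replicates of the 6 genes in this comparison, and was 4.88-fold lower (log2 -2.29, SE 0.33, adjusted p = 0.00539, limma). The log2 ratios of Cyp4a31 were -1.62 and -1.97, and it was 3.46-fold lower (log2 -1.79, SE 0.18, adjusted p = 0.00136, limma). Cyp4a32 showed the smallest difference, -1.0 and -1.23, or 2.17-fold lower (log2 -1.11, SE 0.11, adjusted p = 0.00131, limma). On neither array did the brightest probe of any of these 4 genes exceed its female level.

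At 3 wk the sexes were much closer. In M3/F3 none of the 6 genes was called by limma, none had an unadjusted p under 0.05, and the error-weighted average called 2. Across all probes tested in M3/F3, 0.168% were called higher and 0.296% lower. Cyp4a12a was already higher in male liver on both arrays, with log2 ratios of 1.13 and 0.82 (fitted 0.97, 95% interval -0.35 to 2.29, adjusted p = 0.343, limma). Cyp4a12b gave 0.99 and 0.77 (adjusted p = 0.39, limma). The log2 ratios of the remaining genes lay on both sides of 0 on the 2 arrays, from 0.40 and -0.24 for Cyp4a10 to 0.25 and -0.23 for Cyp4a32. Cyp4a14 had the widest spread, 0.57 and -0.49, and the intervals of these 4 genes ran from -0.75 to 0.83 at the most.

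At 4 wk all 10 probes were positive on both M4/F4 arrays. Cyp4a12a reached log2 ratios of 4.34 and 3.59, or 15.6-fold (log2 3.97, SE 0.56, adjusted p = 0.00466, limma), and Cyp4a12b reached 3.93 and 3.33, or 12.4-fold (log2 3.63, SE 0.54, adjusted p = 0.00609, limma). These were the 2 of 6 genes called, where 0.551% of probes were called higher and 0.889% lower. Without the M4/F4 replicate 1 array neither was called (adjusted p = 0.0539 and 0.0674), although their log2 ratios stayed at 3.42 and 3.17. The call of Cyp4a12b was also lost with the shared pools in the covariance (adjusted p = 0.0545). The genes that were lower in adult males had the opposite sign at 4 wk. The values were 0.58 and 0.88 for Cyp4a10, 1.14 and 1.06 for Cyp4a14, 0.55 and 0.73 for Cyp4a31, and 0.55 and 0.58 for Cyp4a32. Their adjusted p-values in limma were 0.0556, 0.0773, 0.0634 and 0.0176, and the fold of Cyp4a32 (1.48) was under the threshold. The dimmest probe of Cyp4a10 (0.74 and 0.57) and both dimmer probes of Cyp4a31 (0.88 and 0.50, and 0.65 and 0.65) were called at this age, so 5 of the 10 probes passed.

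**Figure D1:**
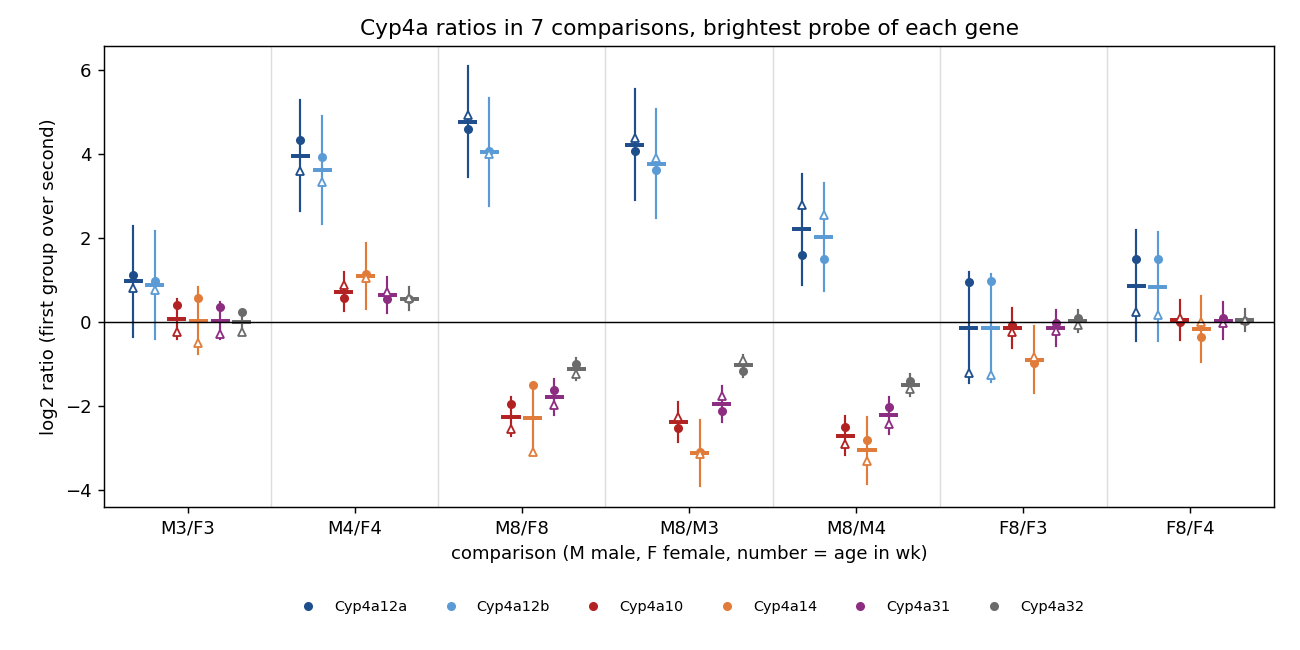
Log2 ratio of each Cyp4a gene (brightest probe) in the 7 comparisons. Filled circles are the replicate 1 arrays and open triangles the replicate 2 arrays, horizontal bars are the fitted ratios and vertical lines their 95% intervals. Cyp4a12a and Cyp4a12b lie above 0 in M4/F4, M8/F8, M8/M3 and M8/M4, and the other 4 genes lie below 0 in M8/F8, M8/M3 and M8/M4.

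Between 3 and 8 wk the family divided in male liver as it did between the adult sexes. All 6 genes were called in M8/M3, 2 higher and 4 lower at 8 wk, where 8.24% of probes tested were called higher and 8.56% lower. Cyp4a12a rose 18.7-fold, with log2 ratios of 4.08 and 4.38 (SE 0.56, adjusted p = 0.00365, limma). Cyp4a12b rose 13.7-fold, with 3.63 and 3.92 (SE 0.54, adjusted p = 0.00525, limma). Its call was lost without the M8/M3 replicate 2 array (log2 3.49, adjusted p = 0.0565). Cyp4a14 fell most, 8.63-fold, with log2 ratios of -3.09 and -3.13 (SE 0.33, adjusted p = 0.00166, limma). Cyp4a10 fell 5.22-fold (-2.51 and -2.25), Cyp4a31 fell 3.84-fold (-2.12 and -1.76) and Cyp4a32 fell 2.05-fold (-1.15 and -0.91). The adjusted p-values of these 3 genes in limma were 0.000681, 0.00103 and 0.00175.

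From 4 to 8 wk the same 4 genes fell in males. All 4 were called in M8/M4, and 4.64% of probes tested were called higher and 5.43% lower. Cyp4a14 fell 8.30-fold (log2 ratios -2.81 and -3.30), Cyp4a10 fell 6.48-fold (-2.50 and -2.90), Cyp4a31 fell 4.64-fold (-2.01 and -2.42) and Cyp4a32 fell 2.82-fold (-1.41 and -1.58), with adjusted p-values in limma of 0.00178, 0.000439, 0.000647 and 0.000471. Of the Cyp4a12 genes 1 was called in M8/M4. Cyp4a12a gave 1.61 and 2.80, or 4.61-fold (SE 0.56, adjusted p = 0.0423, limma), and Cyp4a12b gave 1.5 and 2.56, or 4.08-fold (SE 0.54), which missed the threshold (adjusted p = 0.0528, limma). The call of Cyp4a12a was lost under 18 of 29 other settings, with a log2 ratio between 1.41 and 3.01. Among these were the shared pools in the covariance (adjusted p = 0.137), the slide as a block (adjusted p = 0.0818) and the replicate block (adjusted p = 0.055), all from limma. The call was also lost with either M8/M4 array left out, at 1.41 without replicate 2 and 3.01 without replicate 1.

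In female liver none of the 6 genes was called in either age comparison. Across all probes tested, the F8/F3 calls comprised 5.31% higher and 5.52% lower, and the F8/F4 calls 2.43% higher and 2.98% lower. The F8/F3 log2 ratios of Cyp4a10 were -0.06 and -0.23, those of Cyp4a31 were -0.03 and -0.22, and those of Cyp4a32 were 0.10 and -0.06. The 95% intervals were -0.61 to 0.33, -0.56 to 0.30 and -0.24 to 0.29. A change in females as large as that in males from 3 to 8 wk was therefore outside the interval for each of these 3 genes. Cyp4a14 was lower at 8 wk on both arrays, -0.96 and -0.82 (fitted -0.89, 95% interval -1.68 to -0.10, adjusted p = 0.14, limma). It was the 1 gene of the 6 with an unadjusted p under 0.05 in F8/F3, and the error-weighted average called 1 gene there. In F8/F4 no gene had an unadjusted p under 0.05 and the error-weighted average called 0. The fitted log2 ratios of the 4 genes in F8/F4 lay between -0.16 (Cyp4a14) and 0.05 (Cyp4a10 and Cyp4a32).

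The Cyp4a12 genes varied more between the replicates of the female comparisons. The log2 ratios of Cyp4a12a in F8/F3, 0.96 and -1.22, pointed in opposite directions, and its F8/F4 values were 1.5 and 0.24. Cyp4a12b behaved alike, with F8/F3 ratios of 0.98 and -1.25 and F8/F4 ratios of 1.51 and 0.18. The mean normalized log2 intensity of Cyp4a12a over the arrays of a pool was 11.85 and 10.64 in the 8 wk female pools of replicate 1 and 2, 11.06 and 11.44 in the 3 wk female pools and 16.35 and 16.31 in the 8 wk male pools. The replicate 2 pool of 8 wk females did not read alike on its 3 arrays, with 11.56 in M8/F8 but 10.19 in F8/F3 and 10.16 in F8/F4. The replicate 1 pool read 11.63, 12.00 and 11.94 on the matching arrays. For Cyp4a12b the replicate 2 pool read 12.53, 10.07 and 9.94. The replicate 2 pool thus read low on the F8/F3 and F8/F4 arrays and high on the M8/F8 array. The male channel of that M8/F8 array read 16.50 for Cyp4a12a and 16.54 for Cyp4a12b. Which of the 3 arrays gives the level of the pool was not tested, and the M8/F8 ratios rest in part on the high reading. A female change in Cyp4a12a between 3 and 8 wk was not detectable within an interval of -1.45 to 1.19.

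**Figure D2:**
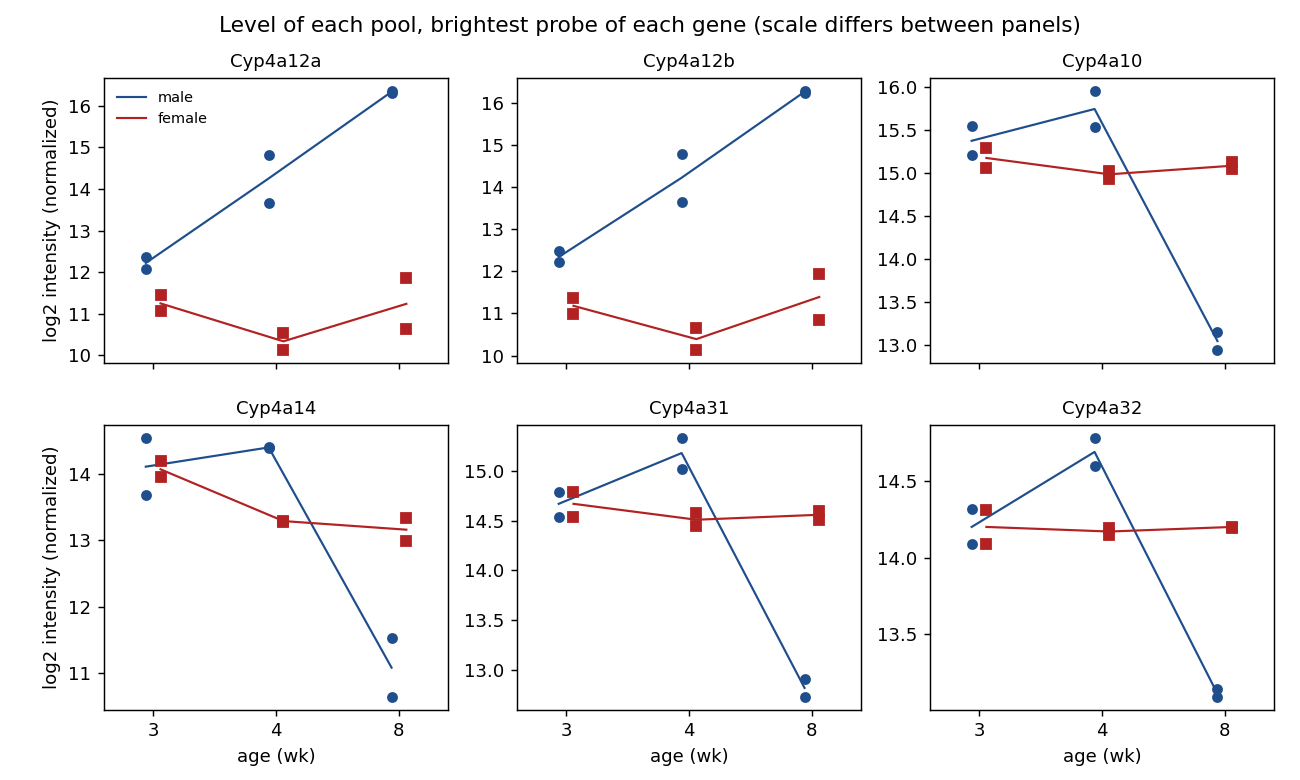
Normalized log2 intensity of each RNA pool by age, with 1 point per pool and lines through the group means (male in blue circles, female in red squares), for the brightest probe of each gene. The 8 wk male pools lie apart from all other pools in every panel, above them for Cyp4a12a and Cyp4a12b and below them for the other 4 genes.

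The order of the 6 groups by level, taken within each probe, was the same for Cyp4a12a and Cyp4a12b at its upper end. For Cyp4a12a, M8 (mean log2 intensity 16.33) was followed by M4 (14.25) and M3 (12.22), and the pools of these neighbours did not overlap. Female liver came next, with F3 (11.25) and F8 (11.24) overlapping and F4 lowest (10.34). The 4 wk male pools stood 14.82 and 13.67. For Cyp4a10 the order began with M4 (15.74), M3 (15.37), F3 (15.17) and F8 (15.08), neighbours that overlapped, and F4 (14.98) was just below. M8 (13.04) was 1.94 below F4, with no overlap. Cyp4a31 and Cyp4a32 also began with M4 (15.18 and 14.69), which did not overlap the next group, M3 (14.67 and 14.20). They ended with M8 (12.82 and 13.11), and their M3, F3, F8 and F4 levels overlapped between neighbours. Cyp4a14 ran from M4 (14.40) over M3 (14.11) and F3 (14.07) to F4 (13.29) and F8 (13.16). Its 8 wk male pools were lowest again, at 11.53 and 10.64.

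The 8 wk pools were apparently used in 3 comparisons each, so the 5 comparisons with 8 wk liver are not treated as independent of each other. The change with age was compared between the sexes directly. From 3 to 8 wk the male change minus the female change was called for 5 of 6 genes, where 1.67% of probes tested were called higher and 1.55% lower. On the log2 scale the difference was 4.36 for Cyp4a12a (SE 0.79, adjusted p = 0.0309, limma) and 3.91 for Cyp4a12b (SE 0.77, adjusted p = 0.042, limma). The replicate values were 3.12 and 5.60 for Cyp4a12a and 2.64 and 5.17 for Cyp4a12b. Without the F8/F3 replicate 1 array the differences were 5.53 and 5.10, and without the replicate 2 array 3.19 and 2.72, which were not called (adjusted p = 0.108 and 0.133). These 2 calls were lost under 14 and 18 of 28 other settings. Among them were the shared pools in the covariance (adjusted p = 0.114 and 0.23) and the slide as a block (adjusted p = 0.0681 and 0.0743), and for Cyp4a12b the replicate block (adjusted p = 0.0503). It was -2.24 for Cyp4a10, -1.81 for Cyp4a31 and -1.05 for Cyp4a32, with adjusted p-values of 0.0102, 0.0146 and 0.0179. For Cyp4a14 it was -2.22 and missed the threshold (adjusted p = 0.0529). M8/M3 and F8/F3 were scanned on different days, whereas M8/F8 and M3/F3 were all scanned on the first day. The latter gave 3.80, 3.17, -2.32, -2.33, -1.83 and -1.12 for Cyp4a12a, Cyp4a12b, Cyp4a10, Cyp4a14, Cyp4a31 and Cyp4a32, and 5 of the 6 genes were called from them. Here Cyp4a14 was called and Cyp4a12b was not (adjusted p = 0.0763). The count of 5 fell to 0 without either M8/M3 array, to 2 without either F8/F3 array, and to 3 without either M3/F3, M4/F4 or F8/F4 array.

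From 4 to 8 wk, which was measured wholly on the second scan day, 4 genes were called, all with a greater fall in males, where 0.798% of probes tested were called higher and 0.543% lower. The differences were -2.74 for Cyp4a10 (SE 0.28, adjusted p = 0.0105), -2.89 for Cyp4a14 (SE 0.47, adjusted p = 0.0401), -2.25 for Cyp4a31 (SE 0.26, adjusted p = 0.014) and -1.55 for Cyp4a32 (SE 0.16, adjusted p = 0.0105), all from limma. The call of Cyp4a14 was lost under 16 of 28 other settings, among them the shared pools in the covariance (adjusted p = 0.0935), the slide as a block (adjusted p = 0.0662) and no dye term (adjusted p = 0.0531). Cyp4a12a gave 1.34 (adjusted p = 0.536) and Cyp4a12b gave 1.18 (adjusted p = 0.588), with replicate values of 0.11 and 2.56, and of -0.01 and 2.38. The sex ratios, all scanned on the first day, gave -2.97, -3.39, -2.43 and -1.68 for Cyp4a10, Cyp4a14, Cyp4a31 and Cyp4a32, and 0.80 and 0.42 for Cyp4a12a and Cyp4a12b. The count of 4 fell to 2 without the M8/M4 replicate 2 array or without either F8/F4 array.

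The step from 3 to 4 wk was on no array and was read as the difference of ratios to the 8 wk pools, which were apparently shared. In males this crosses the scan days, which cannot be told apart from age in it. No member was called in M4/M3 (0.0971% of probes higher and 0.131% lower) or in F4/F3 (0.0336% higher and 0.056% lower) by limma, and 2 and 0 members had an unadjusted p under 0.05. The 2 were Cyp4a12a, with a log2 ratio of 2.02 (replicate values 2.47 and 1.57, adjusted p = 0.345), and Cyp4a32, with 0.46 (0.26 and 0.66, adjusted p = 0.279). Cyp4a14 gave -0.06 in M4/M3 (-0.29 and 0.17), although its mean level was higher in M4 than in M3, whose pools overlapped. In F4/F3 Cyp4a12a gave -1.0 (95% interval -2.86 to 0.87), and all 10 probes had a negative fitted ratio.

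Probes of the same gene did not all give one answer. Among the 3 probes of Cyp4a10 the M8/F8 log2 ratio was -2.25, -1.84 and -0.73 from the brightest to the dimmest, and all 3 were called. Of the 3 probes of Cyp4a31, the brightest and the dimmest gave -1.79 and -1.73, but the middle one gave 0.50 and 0.19 on the 2 arrays (fitted 0.34), and was not called. That probe also gave 0.22 in M8/M3 and -0.26 in M8/M4, against -1.94 and -2.22 for the brightest probe. The fall of Cyp4a31 in adult males thus rests on the probe that overlaps a probe of Cyp4a10 and on the dimmest probe. The 3 probes carry a single accession, and what the middle probe measures was not tested.

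**Figure D3:**
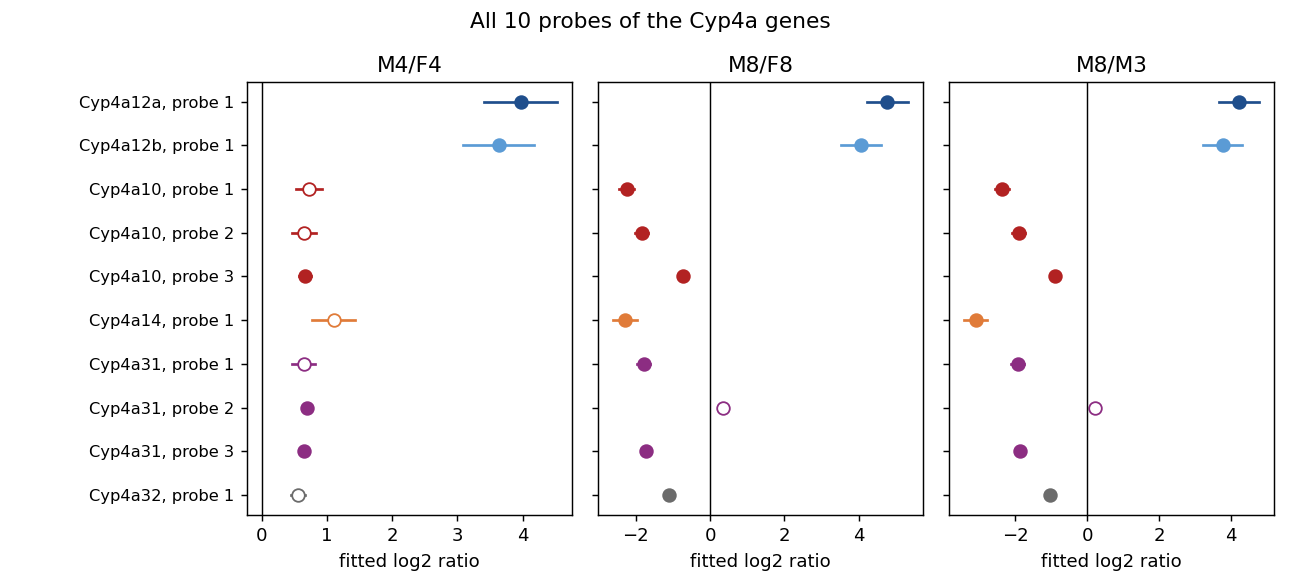
Fitted log2 ratio (± SE) of all 10 Cyp4a probes in M4/F4, M8/F8 and M8/M3, ordered within each gene from the brightest probe (probe 1) to the dimmest. Filled points were called and open points were not. In M8/F8 the second probe of Cyp4a31 (0.34) lies on the other side of 0 from its brightest (-1.79) and dimmest (-1.73).

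The likeness of 2 genes was taken as the uncentred correlation of their log2 ratios over the 14 arrays, which apparently share pools, and is given as a description. Cyp4a10 and Cyp4a14 had a correlation of 0.978, and their ratios differed by at most 0.90 on any array. Cyp4a12a and Cyp4a12b had one of 0.999, and Cyp4a10 and Cyp4a12a one of -0.68. Outside the family, 3528 genes called in at least 1 comparison were candidates. Among the 5 most like Cyp4a12a were the aldehyde oxidase gene Aox3 (0.981), Keg1 (0.962), the ethanolamine kinase gene Etnk1 (0.957) and Cib3 (0.951). The M8/F8 log2 ratios of these 4 genes were 1.89, 1.72, 0.62 and 2.68, all smaller than that of Cyp4a12a. The 5 most like Cyp4a14 were Cmtm7 (0.982), the pantetheinase gene Vnn3 (0.963), Cand2 (0.957), Mcmdc2 (0.952) and the glucosylceramide synthase gene Ugcg (0.950). Their M8/M3 log2 ratios were -0.72, -1.52, -1.28, -2.33 and -0.67, against -3.11 for Cyp4a14. By Pearson's correlation over the 12 pool levels, 1 of the 5 for Cyp4a12a and 3 of the 5 for Cyp4a14 were again among the 5 most alike.

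No other CYP4 gene was called lower in M8/F8 or M8/M3, where 3.49% and 8.56% of all probes were called lower. In a list of 11 genes a count of 0 is near those shares. Of 11 measured in M8/F8, 2 were higher in male liver and 0 lower (median log2 ratio 0.07), against 2.81% of all probes called higher. One was Cyp4v3 (log2 0.73, adjusted p = 0.00288, limma), a fatty acid hydroxylase gene. The other was Cyp4a30b, the neighbour of Cyp4a12b, which was well above background in both 8 wk male channels and in neither female one. It was at least 2.75-fold higher in M8 than in F8 and at least 5.50-fold higher in M8 than in M3 (adjusted p = 0.000532 in both, limma). In M8/M4 its log2 ratios were 1.36 and 2.55. In M8/M3 4 of 11 CYP4 genes rose and none fell, against 8.24% of all probes called higher. Besides Cyp4a30b they were Cyp4v3 (1.31), Cyp4f13 (0.79) and Cyp4f17 (0.71). In M4/F4 none of 10 was called by limma. Of the 4 genes that pass electrons to P450 enzymes, 1 was lower in M8 than in F8, against 3.49% of all probes called lower. It was the reductase gene Por (log2 ratios -1.38 and -0.50, adjusted p = 0.0148, limma), and none of the 4 was called in M8/M3.

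Among the genes that act after omega-hydroxylation, Abcd2 and 3 acyl-CoA thioesterase genes were lower in M8/F8, M8/M3 and M8/M4. Of 12 genes of the alcohol and aldehyde steps, acyl-CoA synthesis and peroxisomal import, 2 were lower in M8/F8 and none higher (median -0.13), against 3.49% of all probes called lower and 2.81% higher. They were Abcd2, a peroxisomal fatty acid transporter (log2 ratios -3.30 and -4.16, adjusted p = 0.00105), and Adh1, an alcohol dehydrogenase (-0.41 and -0.86, adjusted p = 0.00604, limma). Both also fell in M8/M3 (-3.48 and -0.90), with Acsl3 (-0.68) and Acsl5 (-0.63), which activate fatty acids to acyl-CoA. Of 21 genes of peroxisomal beta-oxidation, 3 were lower and 1 higher in M8/F8 (median -0.01), beside the same shares. The 3 were acyl-CoA thioesterases: Acot3 (-3.57), Acot4 (-2.0) and Acot5 (-0.96), with adjusted p-values in limma of 0.000189, 0.000256 and 0.00252. The 1 higher gene was Scp2 (0.83), which encodes a peroxisomal thiolase and sterol carrier. In M8/M3 the same 3 thioesterase genes fell (-2.89, -1.54 and -0.74) with Ehhadh (-0.61), and Scp2 (0.62), Amacr (0.61) and Slc27a2 (0.74) were among those that rose, with a median of 0.12 over 22 genes. That made 4 that fell and 4 that rose, against 8.56% of all probes lower and 8.24% higher. In M8/M4 7 of 22 fell and none rose (median 0.04), against 5.43% of all probes called lower. They were Acot3 (-2.55), Acot4 (-1.46), Acot5 (-0.87), the thioesterase gene Acot6 (-0.73), Ehhadh (-0.62) and the carnitine acyltransferase genes Crot (-0.91) and Crat (-0.63). Of the 12 genes above, 2 fell in M8/M4 and none rose, Abcd2 (-3.23) and Acsl3 (-0.92). Acot3 differed from the Cyp4a genes in F8/F3, where it rose (log2 ratios 1.73 and 1.27, adjusted p = 0.00376, limma).

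The list of other known PPARalpha targets left out the genes of the preceding paragraph, Abcd2, Acot3, Acot4 and Ehhadh among them. Its genes were called in M8/F8 and M8/M3 at shares near those of all probes. In M8/F8 1 of 29 was higher, the lipid droplet gene Fitm1 (log2 1.72, adjusted p = 0.000351), and 1 was lower, the fatty acid transporter gene Cd36 (log2 -0.63, adjusted p = 0.00241, limma), with a median of 0.02, against 2.81% of all probes higher and 3.49% lower. In M8/M3 3 of 30 fell and 2 rose (median 0.01), against 8.56% and 8.24% of all probes. Those that fell were Vnn1, a pantetheinase gene (-2.49), the hormone gene Fgf21 (-1.58) and Acot1 (-1.21), and those that rose were Fitm1 (1.39) and the carnitine transporter gene Slc22a5 (0.97). In M4/F4 3 of 29 targets were higher in males, Fgf21 (1.59), Fitm1 (0.94) and the fatty acid binding protein gene Fabp1 (0.89), against 0.551% of all probes. Ppara itself gave M8/F8 log2 ratios of -0.47 and 0.00 (fitted -0.24, adjusted p = 0.318), M4/F4 ratios of 0.32 and 0.13 (adjusted p = 0.338) and M8/M3 ratios of 0.32 and 0.14 (adjusted p = 0.328, limma). Of the 13 genes for PPARalpha and its partners, Med1 (0.87) and Pparg (0.80) were higher in M8/F8. In M8/M3 Med1 (1.41), Ppargc1b (1.28), Pparg (1.27) and Lpin1 (1.15) rose and Ppard fell (-2.13). Female liver shared part of this, since in F8/F3 Ppargc1b (1.2), Lpin1 (1.19) and Ppargc1a (0.82) rose and Ppard fell (-2.24). Of all probes in F8/F3 5.31% were called higher and 5.52% lower. Of the 13 genes 1, Med1 (0.99), was called for the difference between the sexes from 3 to 8 wk, against 1.67% of all probes called higher. In M4/F4 1 of the 13, the coactivator gene Ppargc1a, was lower in males (-1.10), against 0.889% of all probes called lower. Genes given from M4/F4, M8/M4, F8/F3 and the difference between the sexes, and those beyond the 3 largest of a list, were named after their values were seen.

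**Figure D4:**
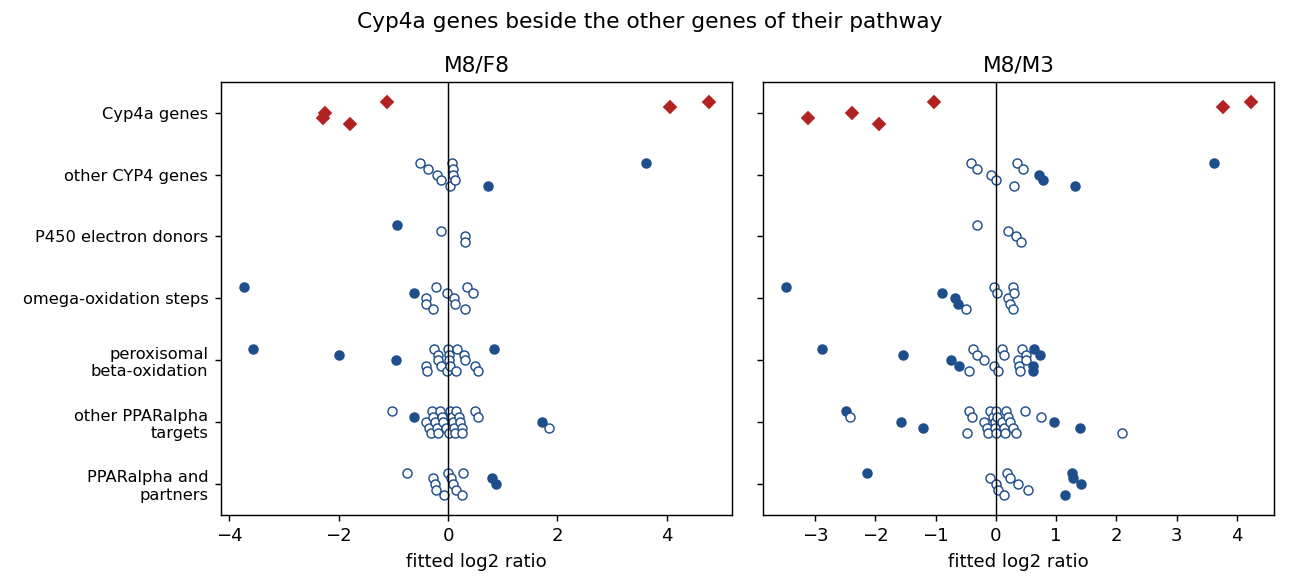
Fitted log2 ratio of the 6 Cyp4a genes (red diamonds) and of other genes of fatty acid omega-oxidation and PPARalpha signalling (blue circles, 1 per gene, grouped by list) in M8/F8 and M8/M3. Filled symbols were called and open symbols were not, and each panel has its own scale. Most circles lie near 0, with Abcd2 (-3.73 in M8/F8) and Acot3 (-3.57) farthest to the left and Cyp4a30b (3.62, a measured value against female channels that were not well above background) farthest to the right.

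All 9 hepatocyte markers were well above background in all 28 channels, and of the 4 kidney markers Lrp2 was in 28, Slc22a6 in 21, Slc34a1 in 15 and Umod in 1. On the 6 arrays of male over female RNA the log2 ratio of Xist was -6.67 to -5.10 and that of Ddx3y was 5.80 to 7.24, as the labels of the dyes require. Markers of other cells moved with some of the comparisons, and their part in the Cyp4a results was not tested. Of 7 erythroid markers 5 fell in each comparison of 8 wk with younger liver. Another, Alas2, rose in M8/M3 (1.37) and M8/M4 (0.98) and was higher in males in M8/F8 (1.89, adjusted p = 0.000725, limma) and M4/F4 (0.78). The log2 of the summed erythroid intensity was 17.13 to 17.14 in M3, 16.98 to 17.24 in M4, 16.06 to 16.14 in M8, 17.07 to 17.19 in F3, 17.07 to 17.24 in F4 and 15.89 to 16.00 in F8. Epb42 was among those not above background in either 8 wk group. Of 5 Kupffer cell markers 3 were lower in M8/F8, Marco (-1.05), Adgre1 (-0.65) and Clec4f (-0.59), with a summed log2 intensity of 13.92 to 14.29 in M8 and 14.60 to 14.73 in F8. Their sums were 14.54 to 14.74 in M3, 14.63 to 14.74 in M4, 14.84 to 14.94 in F3 and 14.96 to 15.04 in F4, and none of the 5 was at background in any group. In M8/M3, where 8.56% of all probes were called lower, Marco (-2.20) and Adgre1 (-0.86) fell. Of 4 bile duct markers 2 fell there, Krt7 (-0.91) and Krt19 (-0.66), and the list reached up to 0.43. Of 2 kidney markers measured there 1 fell, Lrp2 (-0.72). Of 5 B and T cell markers measured there 1 fell, Cd3g (-0.75), and the list reached up to 0.43. Cd3g was also the 1 of these 5 called lower in M8/F8 (-0.86), where the list reached up to 0.20. Of the hepatocyte markers in M8/M3, Alb fell (-0.71) and Serpina1a rose (0.83). The summed hepatocyte markers stayed between 19.74 and 19.99 in all 12 pools.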

How the data were processed

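Liver RNA pools were compared on 14 two-colour arrays on 4 slides, scanned on 2 days. The authors obtained background-subtracted and dye-normalized (linear and LOWESS) intensity values with Agilent Feature Extraction 10.7.1.1 and deposited, per spot, the log10 ratio of red over green with its log10 error. The table deposited for the whole series holds the same log10 values (largest difference 0). Of the spots, 55.2% to 77.2% per channel were well above background, and the precision is limited by the 2 arrays per comparison.

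Ratios were turned by the dye labels to male over female or older over younger and converted to log2, and spots of a probe were averaged (39429 probes, 26055 named through RefSeq accessions). Deposited processed signals were set to log2 intensity and normalized between arrays (Aquantile) for levels. In R 4.3.3, limma 3.58.1 fitted 7 comparisons and 1 dye term, with Benjamini-Hochberg adjustment over all probes and the 7 comparisons, and within each other contrast. Files were read with version 1.17.8 of data.table. Pools of one number were apparently reused between comparisons: around the loops of arrays, replicate differences correlated across probes with r = 0.913 (3 wk) and 0.904 (4 wk), so the comparisons are not independent. The fit with the shared pools in its covariance was an alternative. For the alternative with normexp (offset 50) and loess, median spot signals were used in place of mean signals. The Rosetta error model was approximated by an error-weighted average at the p threshold of the study (1e-04). Other alternatives were the replicate block, the slide as a block, no dye term, 6 group means, each comparison alone, centred ratios, other filters and adjustments, the next brightest probe, and each array left out in turn.

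A lower bound on a fold, "at least", compares the mean of the brighter group with the higher of the dim probe's own signal and the lowest signal well above background on the array. Named were all members, the 3 genes of each list with the largest change among those called in M8/F8 and in M8/M3, Ppara, and the 5 genes most like Cyp4a12a and Cyp4a14. Members, lists and tests were chosen with earlier results of these data known. A few genes of the lists and of the most alike genes are not reported here.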

Additional observations from a re-analysis of the deposited data

Results flagged for a closer look

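The change from 3 to 8 wk differed between the sexes by the test of the difference itself (limma) for 5 genes. The male minus female difference in log2 ratio was -2.24 for Cyp4a10, 4.36 for Cyp4a12a, 3.91 for Cyp4a12b, -1.81 for Cyp4a31 and -1.05 for Cyp4a32. The calls of Cyp4a12a and Cyp4a12b were lost under 14 and 18 of 28 other settings, the shared pools in the covariance among them (adjusted p = 0.114 and 0.23). From 4 to 8 wk it differed for 4 genes, with -2.74 for Cyp4a10, -2.89 for Cyp4a14, -2.25 for Cyp4a31 and -1.55 for Cyp4a32. The call of Cyp4a14 was lost under 16 of 28, again with the shared pools (adjusted p = 0.0935). The probe behind the Cyp4a31 values overlapped the second brightest probe of Cyp4a10 in sequence, while the probe behind the Cyp4a10 values was not compared by sequence here. The middle probe of Cyp4a31 gave 0.27 from 3 to 8 wk and -0.38 from 4 to 8 wk.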

How the results depend on the processing

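The limits are the 2 arrays per comparison, pools that were apparently shared between comparisons, and probes of near-identical genes. The number of the 6 Cyp4a genes called in M4/F4 (2) was 5 with 6 group means, with normexp and loess, with the error-weighted average and with bright probes alone, was 1 with the shared pools in the covariance, and was 0 with each comparison fitted alone and at the study's threshold on the unadjusted p. Fitted alone on 2 arrays, M8/F8, M8/M3 and M8/M4 also gave 0. In that setting the adjusted p was 0.25 (limma) even for Cyp4a12a in M8/F8 (log2 4.77, SE 0.14). A count of 0 there thus says little about the genes. At the study's threshold on the unadjusted p they gave 4 each, with Cyp4a12b and Cyp4a14 lost in M8/F8, both Cyp4a12 genes in M8/M3 and Cyp4a12a in M8/M4. The error-weighted average lost Cyp4a14 in M8/F8 (5 called) and Cyp4a12a in M8/M4 (4 called). The error-weighted average called 2 in M3/F3 and 1 in F8/F3, and 6 group means called 1 in F8/F3. For the difference between the sexes from 3 to 8 wk, 3 genes in place of 5 were called with the shared pools in the covariance or with the slide as a block, and 0 at the study's threshold. Leaving out 1 array at a time gave 0 to 3 genes in M4/F4, 0 to 4 for the sex by age difference from 3 to 8 wk and 2 to 4 from 4 to 8 wk. In M8/F8 it gave 6 to 6, in M8/M3 5 to 6 and in M8/M4 4 to 6. With the replicate block, which pairs arrays by replicate number, 3 genes were called in M4/F4, 4 in M8/M4 and 6 in M8/F8. With its middle probe, Cyp4a31 had log2 ratios of 0.34 in M8/F8, 0.22 in M8/M3 and 0.27 for the difference from 3 to 8 wk, against -1.79, -1.94 and -1.81. Over the values of single Cyp4a genes in M4/F4 and of those called elsewhere, 786 values under other settings stayed on their side of the threshold, 113 lost their call and 19 gained one, and the 3 above were the only ones to turn direction. The lost calls include those of each comparison fitted alone.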
